A study of Mus musculus with 6 samples.

Results

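Heat shock proteins are chaperones: they bind unfolded or newly made proteins, keep them from clumping and help them reach their shape. Outside the endoplasmic reticulum most of their stress-induced transcription runs through HSF1, a factor that is held inactive by chaperones and binds DNA as a trimer when unfolded protein accumulates. In hepatocytes these genes answer to heat, oxidants, toxins and handling of the cells. Described here are 10 such genes of the cytosol and mitochondria, chosen by name: the HSP70 genes Hspa1a, Hspa1b and Hspa8, the HSP90 genes Hsp90aa1 and Hsp90ab1, the small heat shock gene Hspb1, the HSP110 gene Hsph1, the HSP40 gene Dnajb1, and the mitochondrial chaperonin genes Hspd1 and Hspe1. A gene's level was the mean log2 value of the probe sets whose platform annotation names that gene alone. By that rule 8 of the 10 could be measured, among 20416 genes in all and 15312 that were bright enough to be tested. Hspa1b and Hspb1 had no probe set of their own and are given only through probe sets shared with another gene.

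The values come from primary hepatocytes of adult C57BL/6 mice, read on Affymetrix arrays with 1 array per mouse. The miR-143DOX group held 3 mice with a doxycycline-inducible miR-143 allele, and the control group held 3 wildtype littermates. Mice of both groups drank doxycycline at 4 mg/ml with 10% sucrose for 8 days, so the drug was shared and the allele was not. The cells were obtained by perfusing the liver with collagenase and were then snap-frozen. The promoter that drives the transgene and the cells in which it is active are not given in the sources used here, and the level of miR-143 was not analysed here. The comparison asks how the transcripts of hepatocytes differ when this microRNA, which lowers transcripts or proteins that it pairs with, is induced.

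Hepatocyte transcripts such as Alb, Ttr and Cps1 stood at or above the 99.9th percentile of gene levels, and the hepatocyte factor Hnf4a stood at the 98.1st. Defining markers of sinusoidal endothelium stood between the 64.2nd (Pecam1) and 93.1st (Clec4g) percentiles, and those of Kupffer cells between the 41.9th (Marco) and 86.4th (Vsig4). These ranks set different probes side by side and no detection call was used, so they do not show which cell types were present. In such bulk RNA, fewer cells of a type and less RNA per cell cannot be told apart. The 6 arrays correlated across probe sets at Pearson r of 0.936 to 0.954. One array, control replicate 3, stood apart for heat shock genes, and the differences of the 8 measured genes are therefore given with and without it, as are those of other named genes that it moves by over 1.5 times.

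HSF1 recognizes inverted repeats of the unit GAA, so the bases before each transcription start were searched for the pairs GAANNTTC and TTCNNGAA, where N is any base. Both pairs read the same on either strand, and they overlap where units alternate in a longer run. RefSeq promoters (build GRCm38.p6) were at hand for 7 of the 10 genes. Of these, 6 held a pair within the 250 bases upstream of a start, against 14.5% of all 27025 genes in that table. The 10 genes were chosen as heat shock genes driven by HSF1, so the count is no test of enrichment. Nor are the 6 separate: Hspd1 and Hspe1 count for the same bases, and Hspa1a and Hspa1b are near-copies. The stretches below are shown because they place the element in the genes whose values follow. They run 5′ to 3′ on the gene's own strand, with the units of the pairs in capitals. A match is a description of letters and was not tested for binding.
Hspa1a, chr17:34972228-34972285, minus strand: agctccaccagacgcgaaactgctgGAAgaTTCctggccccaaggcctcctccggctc
Hspa1b, chr17:34959310-34959367, minus strand: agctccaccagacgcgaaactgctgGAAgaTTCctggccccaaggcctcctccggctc
Hspb1, chr5:135887777-135887854, plus strand: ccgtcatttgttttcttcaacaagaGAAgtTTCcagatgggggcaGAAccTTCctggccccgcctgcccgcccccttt
Hsph1, chr5:149636351-149636380, minus strand: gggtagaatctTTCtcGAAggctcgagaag
Hspe1, chr1:55088053-55088082, plus strand: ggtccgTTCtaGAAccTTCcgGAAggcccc
Hspd1, chr1:55088053-55088082, minus strand: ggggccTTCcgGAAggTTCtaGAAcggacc

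The windows of Hspa1a and Hspa1b are letter for letter the same, with the pair 104 to 97 bases upstream of each start, and 247 of their 250 upstream bases are identical. Hspb1 holds 2 pairs, between 117 and 90 bases upstream. From the starts used here, Hspd1 and Hspe1 are transcribed away from each other and share 1 stretch, read on opposite strands, in which the units alternate in an unbroken run. Such a run of at least 3 alternating units stood in 0.514% of the genes of the table. The stretches of Hsph1 and of Hspd1 with Hspe1 lie upstream of an annotated start but within the full annotated extent of Hsph1 and of Hspd1. No pair was found in this window of Dnajb1, nor upstream of the other listed start of Hspd1.

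All 8 measured genes had a lower mean in miR-143DOX than in control hepatocytes, with differences between -0.92 (Hspa1a) and -0.00025 (Hspd1) on the log2 scale, and none passed 5% false discovery rate (FDR). Among all 15312 genes, 47.6% lay below 0. The median difference of the 8 genes was -0.17, beside 0.0083 over all genes. At an unadjusted p under 0.05 in limma's moderated test 1 of the 8, Hspa1a, was lower and 0 were higher, where 1.68% of all genes were lower and 1.38% higher. The share of all genes past 5% FDR was 0.00%, with a smallest adjusted p of 0.735, and every adjusted p of the 8 genes was at least 0.9997. Without control replicate 3 the median of the 8 was -0.08, beside -0.012 over all genes, and 5 of the 8 lay below 0, against 53.0% of all genes.

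**Figure D1:**
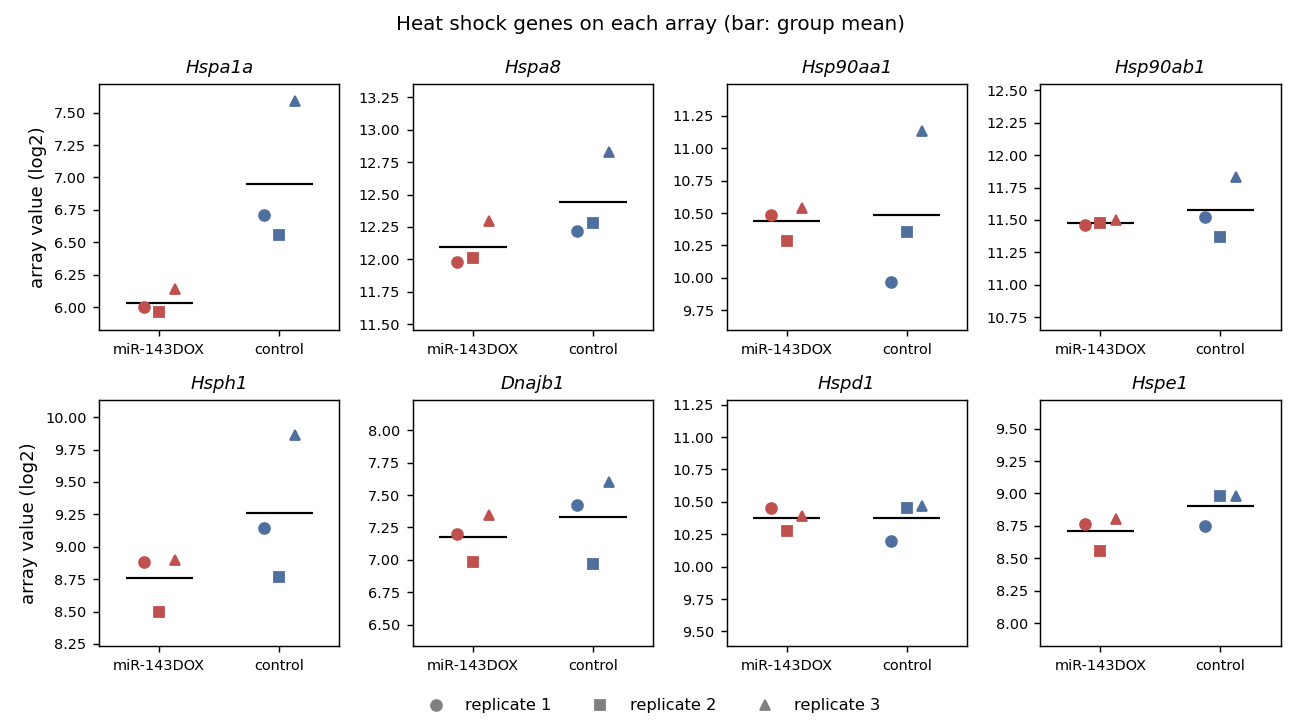
Log2 array values of the 8 measured heat shock genes in 3 miR-143DOX and 3 control mice, a marker per mouse and a bar at the group mean. Every vertical axis spans the same log2 range, and values are not comparable between genes. The groups are separate for Hspa1a, and control replicate 3 is the highest array for 7 of the 8 genes.

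Hspa1a encodes an inducible HSP70, which is scarce in unstressed cells and refolds or hands on damaged proteins with HSP40 partners. The gene lies at chr17:34969359-34972156, beside its near-copy Hspa1b at chr17:34956429-34959238. It measured 6.00, 5.96 and 6.14 in the miR-143DOX mice, against 6.71, 6.56 and 7.59 in the control mice (log2). The groups did not overlap: the highest miR-143DOX value lay below the lowest control value, as for 3.73% of all genes. The means were 6.03 ± 0.09 in miR-143DOX and 6.95 ± 0.56 in control (SD, n = 3 each). The difference was -0.92 with a standard error of 0.23 and a 95% interval of -1.41 to -0.42, or 1.89-fold lower, with an unadjusted p of 0.00168 in limma. Over all genes tested it did not pass (limma adjusted p = 0.9997). Without control replicate 3 it was -0.60 (1.52-fold lower, 95% interval -0.94 to -0.26 and an unadjusted p of 0.0023 in limma). That array was picked for its high values in these same data, so the refit is no independent check. Groups that are separate on all arrays stay separate when an array is left out.

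Hspa1a rests on 1 probe set, at the 46.5th percentile of probe set levels, and no detection call was used. Fitted among the 159073 probe sets bright enough to be tested, that probe set had an unadjusted p of 0.0171 in limma. A probe set that the annotation assigns to Hspa1a, Hspa1b and the neighbouring Hspa1l together measured 8.11, 8.09 and 7.97 in miR-143DOX mice, against 9.05, 8.39 and 9.57 in control mice. It was lower by a similar amount, -0.95, with no overlap on all arrays, and by -0.67 without control replicate 3. Of the tested probe sets that name 1 gene, 4.53% were separate with miR-143DOX lower. The shared probe set was read in the same mice and is no independent check. Another probe set shared by Hspa1a and Hspa1b was dimmer, at 6.26, 6.07 and 5.50 in miR-143DOX against 6.06, 5.78 and 6.14 in control. The groups overlapped there and the difference was -0.05. The shared probe sets cannot assign a value to Hspa1b itself.

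Hspa8 encodes the constitutive HSP70 of the cytosol, which folds new proteins and uncoats clathrin vesicles. Its 7 probe sets averaged 11.98, 12.01 and 12.30 in miR-143DOX, against 12.22, 12.28 and 12.83 in control. The groups overlapped through miR-143DOX replicate 3, which lay above 2 control mice. The difference was -0.35 (standard error 0.18, 95% interval -0.73 to 0.04 and an unadjusted p of 0.0766 in limma), and -0.15 without control replicate 3. The probe sets were unequal. A pair that held near-identical values on every array, within 0.05, differed by -0.80 each, while the other 5 lay between -0.27 and -0.01. With the pair counted once, an alternative chosen after seeing the data, Hspa8 stood at -0.27, and its brightest probe set alone gave -0.01.

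Hsph1 encodes HSP105, an HSP110 protein that exchanges nucleotide on HSP70 and helps it dissolve aggregates. It measured 8.88, 8.50 and 8.90 in miR-143DOX mice, against 9.14, 8.77 and 9.86 in control mice. Control replicate 2 lay inside the miR-143DOX range, and the other control mice lay above it. The difference was -0.50 (standard error 0.24, 95% interval -1.02 to 0.02 and an unadjusted p of 0.0578 in limma), or 1.41-fold lower, and was -0.20 without control replicate 3. Of its 22 probe sets 20 lay below 0, the lowest at -1.03, where 49.2% of all probe sets tested did. The only ones above 0 were the dimmest pair, at the 44.7th and 36.6th percentiles of level. Without control replicate 3, 18 of the 22 lay below 0. The groups were separate and miR-143DOX lower for 4 of the 22, where 4.53% of all probe sets tested were.

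Dnajb1 encodes an HSP40 protein, a J-domain partner that delivers clients to HSP70 and starts its ATP cycle. It measured 7.20, 6.98 and 7.34 in miR-143DOX, against 7.42, 6.97 and 7.60 in control, so the groups overlapped. The difference was -0.15 (standard error 0.18), and -0.02 without control replicate 3. Its 4 probe sets disagreed: the brighter pair lay at -0.51 each, the others at -0.05 and 0.44. The last, the dimmest of the 4 at the 36.2nd percentile, measured 6.56, 6.28 and 5.54 in miR-143DOX against 5.64, 5.76 and 5.65 in control.

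**Figure D2:**
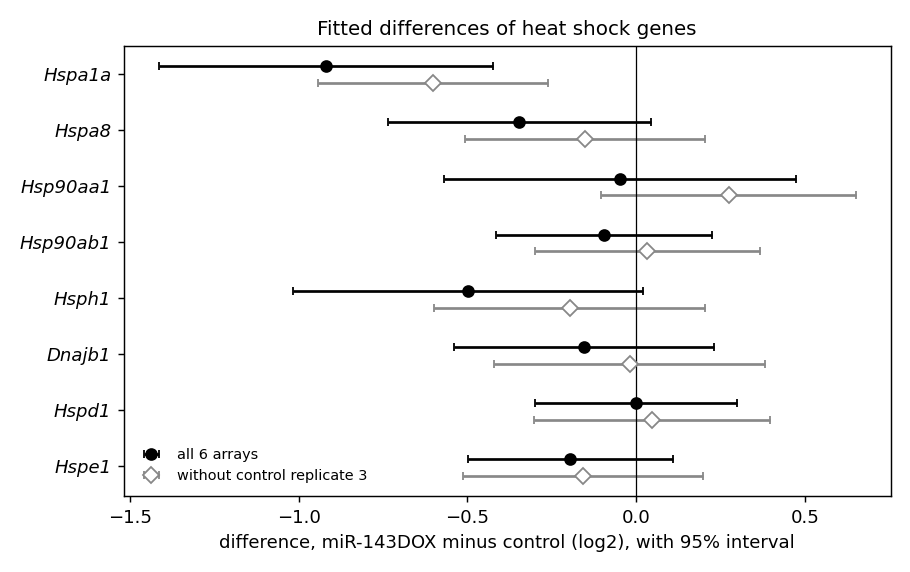
Fitted log2 differences, miR-143DOX minus control, with 95% intervals of the limma fit, for all 6 arrays (filled circles) and without control replicate 3 (open diamonds). For Hspa1a alone among the 8 genes both intervals exclude 0, and Hsp90aa1 moves from -0.05 to 0.27.

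The HSP90 genes encode the chaperone that holds kinases and steroid receptors ready for activation and that restrains HSF1. Hsp90aa1, the stress-inducible form, measured 10.48, 10.29 and 10.54 in miR-143DOX, against 9.97, 10.36 and 11.13 in control. The control mice spread on both sides of the miR-143DOX mice, over a range of 1.16 against 0.252 in miR-143DOX. The difference was -0.05 (standard error 0.24, 95% interval -0.57 to 0.47) with all arrays and turned to 0.27 without control replicate 3. Of its 21 probe sets 19 were highest on that array. The exceptions were the dimmest ones, at the 58.6th and 46.3rd percentiles, and 1 pair of the 21 held near-identical values.

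Hsp90ab1, the constitutive form, measured 11.46, 11.47 and 11.50 in miR-143DOX mice, against 11.52, 11.37 and 11.83 in control mice. The miR-143DOX values lay within 0.0428 of each other. The difference was -0.10 (standard error 0.15), and 0.03 without control replicate 3. Of its 12 probe sets 10 lay below 0, and 3 did without control replicate 3, where 49.2% and 50.9% of all probe sets tested did. One was separate with miR-143DOX lower (-0.48) and another separate with miR-143DOX higher (0.17), where 4.35% of all probe sets were separate with miR-143DOX higher. The second of these is the brightest of the gene, so its difference under that rule was 0.17.

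Hspd1 and Hspe1 encode HSP60 and HSP10, the barrel and lid of the chaperonin that folds imported proteins in the mitochondrial matrix. Hspd1 measured 10.45, 10.28 and 10.39 in miR-143DOX, against 10.20, 10.45 and 10.47 in control. The groups overlapped fully, with a 95% interval of the difference from -0.30 to 0.30, and the difference was 0.05 without control replicate 3. Hspe1 measured 8.77, 8.56 and 8.80 in miR-143DOX, against 8.75, 8.98 and 8.98 in control. Its lowest control mouse lay inside the miR-143DOX range. The difference of Hspe1 was -0.19 (standard error 0.14, 95% interval -0.50 to 0.11), and -0.16 without control replicate 3. All 3 probe sets of Hspe1 lay below 0, and 3 of 4 of Hspd1 did, the exception at 0.10. Without control replicate 3, all 3 of Hspe1 and 1 of 4 of Hspd1 did.

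Hspb1 encodes HSP25, a small chaperone that binds actin and holds unfolded proteins without using ATP. All 11 of its probe sets are also assigned to the pseudogene Hsp25-ps1. Their mean was 6.46, 6.73 and 6.46 in miR-143DOX, against 6.63, 6.32 and 7.34 in control, a difference of -0.22 that turned to 0.07 without control replicate 3. Control replicate 3 stood highest, control replicate 1 lay inside the miR-143DOX range and control replicate 2 below it. One of these probe sets measured 7.71, 7.46 and 7.55 in miR-143DOX against 7.81, 6.94 and 9.56 in control, the widest spread of the 11 among control mice. A pair of the 11 held the same values on every array, at a difference of -0.54 each, and both count in the mean. The dimmest of the 11 averaged 3.95 in miR-143DOX and 4.14 in control. No gene-level test was made for the 11.

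**Figure D3:**
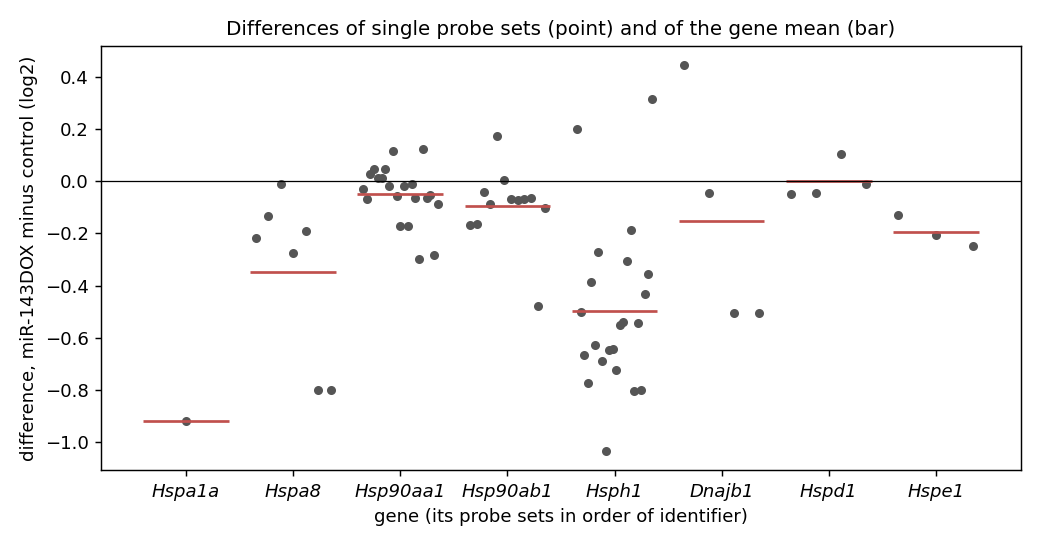
Log2 differences, miR-143DOX minus control, of each probe set that names the gene alone (points, in order of probe set identifier) and of the gene mean (red bars). Probe sets below 0 number 20 of 22 for Hsph1, 7 of 7 for Hspa8 and 14 of 21 for Hsp90aa1, where 49.2% of all probe sets tested lay below 0. Without control replicate 3 they number 18 of 22, 6 of 7 and 1 of 21 in that order, where 50.9% of all did.

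Taking the 8 genes probe set by probe set, 61 of 74 lay below 0, where 49.2% of all probe sets tested did. Without control replicate 3, 35 of 74 did, against 50.9% of all. Probe sets of a gene come from the same mice and are not replicates. At an unadjusted p under 0.05, 3 of the 74 were lower and 0 higher, against 2.15% of all probe sets lower. Those 3 were the probe set of Hspa1a and a pair of Hsph1, and none passed 5% FDR.

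The SD among control mice was 0.24 (Hsp90ab1) to 0.59 (Hsp90aa1) for 6 of the 8 genes, and 0.15 for Hspd1 and 0.13 for Hspe1. Of the 8, 7 were highest on control replicate 3, the array on which 15.1% of all genes were highest. The exception was Hspe1, whose values in control replicates 2 and 3 were 8.98 each. The excess of control replicate 3 over the mean of the other control mice was 0.97 for Hsp90aa1, 0.95 for Hspa1a, 0.91 for Hsph1 and 0.58 for Hspa8. It was 0.40 for Dnajb1, 0.39 for Hsp90ab1, 0.14 for Hspd1 and 0.11 for Hspe1. The median of the 8 was 0.49, beside -0.05 over all genes. The median SD within a group was 0.13 in miR-143DOX and 0.33 in control for the 8 genes, beside 0.17 in miR-143DOX and 0.16 in control over all genes.

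Averaged over the 8 genes, the deviation from the 6-array mean was -0.12, -0.27 and -0.03 in the miR-143DOX mice, against -0.03, -0.06 and 0.51 in the control mice. Only control replicate 3 lay far from the rest. By this measure miR-143DOX replicate 3 and the remaining control mice stood close together. The 5 tested genes most like this mean, by Pearson r over the 6 arrays, were Ccdc15 (0.993), the endoplasmic reticulum chaperone gene Calr (0.990), Usp52 (0.988), D730039F16Rik (0.986) and 6720487G11Rik (0.986). They head a ranking of 15312 genes on 6 values, in which control replicate 3 weighs most. Such an r does not show that the genes share regulation. Ccdc15 was dim and ran only from 5.42 to 5.67. Calr measured 10.69, 10.63 and 10.86 in miR-143DOX mice, against 10.85, 10.84 and 11.35 in control mice. In the order listed, the 5 genes differed by -0.08, -0.29, -0.25, -0.15 and -0.46. Without control replicate 3 these were -0.02, -0.12, -0.11, -0.06 and -0.23.

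Regulators and partners of these chaperones were read from lists chosen by function. The heat shock factor genes gave no call. Hsf1 measured 7.17, 7.43 and 7.53 in miR-143DOX, against 7.65, 7.51 and 7.74 in control, a difference of -0.25 (standard error 0.14). Hsf4 differed by -0.23, Hsf2 by -0.04, and Hsbp1, whose product binds the HSF1 trimer, by 0.30. Without control replicate 3 Hsf2 turned to 0.14 and Hsbp1 was 0.07.

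Of 31 co-chaperone genes of HSP70 and HSP90, 21 lay below 0 and 10 above, where 47.6% of all genes lay below 0. The median of the 31 was -0.03 with and without control replicate 3. At an unadjusted p under 0.05, 2 were lower and 0 higher, where 1.68% of all genes were lower and 1.38% higher. Of the 31, 0 passed 5% FDR. Dnaja1, an HSP40 partner of cytosolic HSP70, measured 8.72, 8.53 and 8.91 in miR-143DOX, against 9.04, 8.85 and 9.46 in control. Its difference was -0.40 (standard error 0.17), and -0.23 without control replicate 3. Dnajc5, the J-domain protein of secretory vesicles, was separate between the groups and lower in miR-143DOX, at -0.29 (standard error 0.13). Stub1, the ubiquitin ligase that tags HSP70 clients, stood 0.21 higher, without overlap, and Chordc1, an HSP90 partner, differed by -0.22. When control replicate 3 was left out Stub1 was 0.13 and Chordc1 -0.05. Separate groups with miR-143DOX higher were seen in 3.40% of all genes.

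The lists of other cytosolic HSP70 and HSP110 genes, small heat shock proteins, mitochondrial chaperones and proteases, and TRiC with prefoldin held 0 genes at an unadjusted p under 0.05 in limma. The 7 tested genes of the first of these lists had a median of -0.02, or 0.04 without control replicate 3. Hspa12b stood at 0.25, Hspa4l at -0.12, Hspa4 at -0.05 and Hspa2 at -0.04. Without that array Hspa12b was 0.12, Hspa2 was -0.13 and Hspa4l turned to 0.04. Of 9 genes in the small heat shock list 8 lay above 0, at a median of 0.08, where 47.6% of all genes lay below 0. Their mean level was low, at 6.51 to 6.77 in miR-143DOX against 6.55 to 6.58 in control. Hspb11, listed here for its symbol alone, stood at 0.23, Hspb6 at 0.12, Hspb8 at 0.11 and Cryab at 0.08. When control replicate 3 was left out Hspb11 was 0.38, Hspb6 0.08 and Cryab 0.0044. Mitochondrial chaperones and proteases, 13 tested, had 6 below and 7 above 0 and a median of 0.011, or -0.12 without control replicate 3, with Afg3l2 at -0.26, Dnajc19 at -0.23, Grpel2 at 0.20 and Hspa9, the matrix HSP70, at 0.17. The 14 genes of the TRiC chaperonin and prefoldin, which fold actin and tubulin, had 9 below and 5 above 0 and a median of -0.07, or -0.11 without control replicate 3. Cct7 stood at -0.19, Pfdn2 at -0.15, Cct3 at -0.20 and Cct6a at -0.11, and without that array Pfdn2 was -0.25 and Cct6a -0.18.

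Chaperone genes of the endoplasmic reticulum, which answer to the unfolded protein response rather than to HSF1, followed the same arrays. All 20 lay below 0, where 47.6% of all genes did, with a median of -0.27, and -0.15 without control replicate 3. Some of the 20 turned above 0 when that array was left out. At an unadjusted p under 0.05, 5 of the 20 were lower, where 1.68% of all genes were, and 0 passed 5% FDR. Creld2 differed by -0.59, Dnajb11 by -0.53, Manf by -0.46 and Hyou1 by -0.53. Without that array Creld2 was -0.38, Dnajb11 -0.32, Manf -0.32 and Hyou1 -0.31. Control replicate 3 was the highest array for 16 of the 20, and for 15.1% of all genes. The mean deviation of the 20 there was 0.40, beside 0.51 for the heat shock genes. The difference between these gene groups was not tested.

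**Figure D4:**
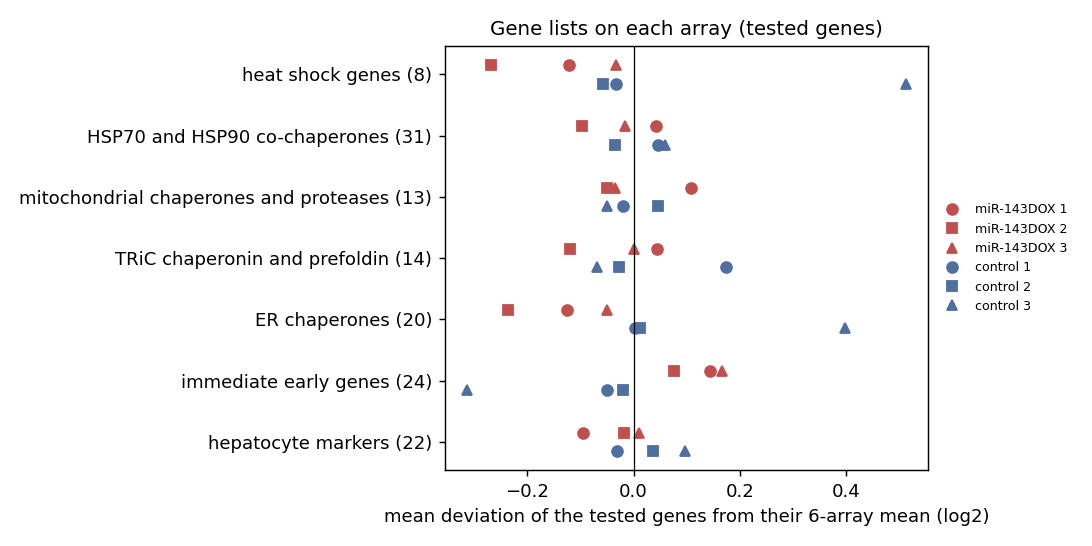
Mean deviation of the tested genes of each list from their own 6-array mean (log2), with miR-143DOX mice above control mice and the number of genes in parentheses. Control replicate 3 lies at 0.51 for heat shock genes, 0.40 for endoplasmic reticulum chaperones and -0.31 for immediate early genes.

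Immediate early and clock genes, also read from lists chosen by function, are given beside the heat shock genes. Of 24 immediate early and stress genes, which handling of cells can induce, 21 lay above 0, where 47.6% of all genes lay below 0. The median of the 24 was 0.20, or 0.10 without control replicate 3. Their mean deviation was 0.14, 0.08 and 0.17 in miR-143DOX mice, against -0.05, -0.02 and -0.31 in control mice, lowest where the heat shock genes were highest. Gadd45a differed by 0.62, Gadd45g by 0.92 and Atf3 by 0.55 (0.26 without control replicate 3), all separate between the groups. They were among 5 genes higher at an unadjusted p under 0.05, where 1.38% of all genes were, with 0 past 5% FDR. Of all genes 3.40% were separate with miR-143DOX higher. The clock list, 16 tested, had a median of -0.13, with Nr1d1 at 0.33, Per1 at -0.34 and the clock output gene Hlf at -0.29. Some others of the list spread widely within both groups. Arntl measured 8.24, 7.25 and 6.35 in miR-143DOX, against 5.56, 7.80 and 7.19 in control. The SD in miR-143DOX and control was 0.95 and 1.16 for Arntl, 1.03 and 0.91 for Per3, and 1.10 and 0.98 for Npas2. Over all genes the median SD was 0.17 in miR-143DOX and 0.16 in control. Nr1d1 was 0.13 when control replicate 3 was left out. The part of isolation stress or time of day in the heat shock values was not tested.

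Marker lists of the cells in the preparation had medians between -0.12 and 0.05. Hepatocyte markers, 22 tested, had a median of 0.0034, or -0.0013 without control replicate 3, and a mean level of 12.5 to 12.7 in miR-143DOX mice against 12.6 to 12.7 in control mice. Of the 22, 10 lay below 0 and 12 above. Those with the smallest unadjusted p were lower: Serpina1a differed by -0.98, or -0.54 without control replicate 3, and Asgr2 by -0.33. Sinusoidal endothelium markers lay below 0 for 16 of 18, where 47.6% of all genes did, with a median of -0.12. The mean level of these markers ran from 7.22 to 7.75 in miR-143DOX mice against 7.56 to 7.71 in control mice. Clec4g differed by -0.37 and Ptprb by -0.20. Kupffer cell markers had a median of 0.05 (0.08 without that array), at 6.91 to 7.26 in miR-143DOX against 7.03 to 7.14 in control, with Timd4 at -0.20 and Clec4f at 0.17. Stellate cell markers, 14 tested with 5 below 0 and 9 above, had a median of 0.04 (0.07 without that array). Their mean level was 6.66 to 6.94 in miR-143DOX against 6.68 to 6.76 in control. Tagln stood at 0.33 and Pdgfrb at 0.23. Cholangiocyte markers, 5 tested, had Spp1 at -0.32 and Krt7 at 0.14 (0.09 without control replicate 3), and of 7 tested lymphocyte and neutrophil markers Cd8a stood at 0.20 and Cd4 at -0.18. Of the defining markers Epcam, Cd79a and S100a8 were too dim to be tested. The part of cell composition in the heat shock values was not tested.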

How the data were processed

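Per the labels' protocols, Trizol-extracted RNA was labelled as biotinylated cDNA by Affymetrix's whole transcript method. The authors deposited 1 value per probe set and array, taken here as log2 because it ran from 1.60 to 15.2; Partek was used, per the submitters' processing notes, with no version stated. Background correction and summary are not given in the sources used here. Of 234873 probe sets, 212097 name 1 gene, 4475 several and 18301 none in the platform annotation, whose symbols can be old. Because array percentiles differed by up to 0.135 (over 0.1), values were quantile normalized. Genes in the lowest 25% by mean level (under 5.06) were left out.

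The test was limma's moderated one (limma 3.58.1, R 4.3.3), two-sided with group as the only term, adjusted by Benjamini-Hochberg over all genes, or all probe sets, tested; the number of arrays limits the precision. Only the limma fit was run on simulated gene values, drawn independently and with no array that stands apart. Normalization, averaging of probe sets and the filter were not simulated. The genes and lists were chosen with earlier results of these data known. Named beside the 10 genes are those with the smallest unadjusted p: up to 4 of each chaperone list, 3 of the stress and clock lists, 2 of each marker list, and the 5 most alike genes by Pearson r. Arntl, Per3 and Npas2 are named for their spread within groups. Nothing in the labels says that the replicate numbers pair mice, so they were not taken as pairs. Same-numbered mice had deviations correlated at 0.11, 0.05 and 0.30 across genes, and those with unlike numbers at -0.26 to 0.15. These values do not settle whether the numbers pair mice. Alternatives were other scalings, filters, summaries of probe sets, variance models and each array left out.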

Additional observations from a re-analysis of the deposited data

How the results depend on the processing

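Over 17 other settings (16 for Hspa1a, whose value fell under the filter with the brightest probe set), 0 genes passed 5% FDR in limma and 0 of the 8 heat shock genes did. With each array left out in turn the median of the 8 ran from -0.29 to -0.08. With each gene's brightest probe set the median was -0.01 over the 7 genes tested, Hspa1a not among them. Hspa1a, Hspa8, Hsph1, Dnajb1 and Hspe1 stayed below 0 in every setting run, at -1.12 to -0.60, -0.46 to -0.01, -0.74 to -0.20, -0.51 to -0.02 and -0.27 to -0.12. The sign of 3 genes turned. Hsp90aa1 ran from -0.31 to 0.27 with arrays left out, above 0 when control replicate 3 was left out and, at 0.027, when miR-143DOX replicate 2 was. Hsp90ab1 ran from -0.20 to 0.033 and was 0.17 with the brightest probe set. Hspd1 ran from -0.088 to 0.048, above 0 when control replicate 2 (0.039), control replicate 3 (0.048) or miR-143DOX replicate 2 (0.048) was left out, and was 0.10 with the brightest probe set. The cause was not tested. With the replicate number as a block, which cannot move a difference in a balanced design (median -0.17), 0 genes passed 5% FDR. At an unadjusted p under 0.05 in limma, 3 of the 8 genes were then lower (Hspa1a, Hspa8 and Hsph1), where 2.70% of all genes were, against 1 of 8 and 1.68% without the block. Over all settings that count ran from 0 of 7, with the brightest probe set, to 3 of 8. The count of heat shock probe sets at an unadjusted p under 0.05 was 3, 2 without a filter, 3 on the deposited values, and 12 with an intensity trend and robust prior, all lower. Of all probe sets 2.15%, 2.25%, 2.03% and 2.15% were lower by that rule in these settings. No detection call was used, so dim values cannot be told from background.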
